A study of Mus musculus with 80 samples.

Results

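One hour of food after a fast was followed in sorted AgRP neurons, early in the light phase. The comparison rested on 12 of the 80 RNA-seq libraries of the series, chosen by their labels alone: 5 of cells from mice refed for 1 hour after an effective 24-hour fast and 7 of cells from mice given the same fast and no food, all collected at ZT2, which is 2 hours after lights on. All 12 came from mice carrying the NPY::hrGFP reporter, in which the Npy promoter drives a green fluorescent protein, and GFP-positive cells had been sorted from dissociated slices of the arcuate nucleus. Cells of the same genotype from 6 libraries of ad libitum fed mice at ZT2, and from 4 refed and 8 fasted libraries at ZT14 (2 hours after lights off, with the same fast and refeeding times), are set beside them where they bear on a result. Neither the age and sex of the mice, the number of mice behind a library nor the kind of food was given in the labels.

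AgRP neurons lie in the arcuate nucleus of the hypothalamus and drive the search for food. They release the peptides AgRP and NPY together with the inhibitory transmitter GABA, fire fast in a fasted animal and are silenced by food within minutes. Ghrelin excites them, while leptin and insulin, the hormones of energy stores and of the fed state, restrain them and lower the transcription of Agrp and Npy. The RNA of such a cell an hour after food therefore holds messages made during the fast as well as those made since.

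The values are gene counts divided by a size factor for each library, called normalised reads below. Differences are refed minus fasted on the log2(value + 1) scale, given with the standard error from limma, and a gene is said to have risen or fallen where its p-value, adjusted by Benjamini-Hochberg over the 14931 genes tested, was under 0.05. On this scale the change of genes with low values is understated. The refed libraries held 13525345 to 20806446 reads and the fasted ones 8713599 to 20578035, with 13041 to 15167 and 13718 to 16206 genes above 0. The labels number the collections but do not state whether each was a mouse of its own. The p-values therefore speak only for the variation among the libraries, part of which may be technical. Of 12 genes that mark AgRP neurons, 11 were above 0 in every library. Agrp lay between 81711 and 338142 and Npy between 223056 and 1801097, whereas Slc32a1, the vesicular GABA transporter, lay only between 41.2 and 162 and Calcrl was at 0 in 8 of the 12.

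Some libraries stood apart. Refed replicate 4 had the fewest genes above 0 (13041), fasted replicate 6 the highest summed astrocyte markers (44253.8, against a fasted median of 4272) and fasted replicate 3 the highest summed markers of POMC neurons (44981). Each count was therefore also taken without these 3 libraries, and that value is given for many of the genes and lists whose calls it changed. A further difference ran between whole groups. Many genes separated 2 control libraries of another experiment, collected at ZT5 with no treatment labelled, from 4 libraries of PBS-treated mice at ZT2, although all 6 had the genotype WT;BMAL1fx, and many of them (counted further on) also separated fasted from refed libraries. This ZT5 minus PBS difference of mean log2(value + 1) is given beside the results, without a test. Where it has the opposite sign and a like size, the refeeding difference and whatever set the ZT5 libraries apart cannot be told apart.

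Between refed and fasted libraries 21.8% of the genes tested differed past the threshold. In all, 1609 genes rose (10.8% of 14931, median difference 1.21) and 1653 fell (11.1%, median -1.51), and the median over all genes was -0.06. Of those that fell, 553 fell by 2 or more on the log2 scale, against 211 that rose by as much. The 5 refed libraries lay above all 7 fasted ones for 783 genes (5.24%) and below them for 655 (4.39%). Without the 3 libraries that stand apart, 1095 genes rose and 1077 fell. Genes that rose had long transcripts (median 5994 bases, GC content 46.6%), genes that fell short and GC-rich ones (2757 bases, 52.8%), against 3341 bases and 49.65% over all genes. A trend of this kind within a library was removed in 1 alternative, which called 823 of the 1609 and 1123 of the 1653 again.

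**Figure D1:**
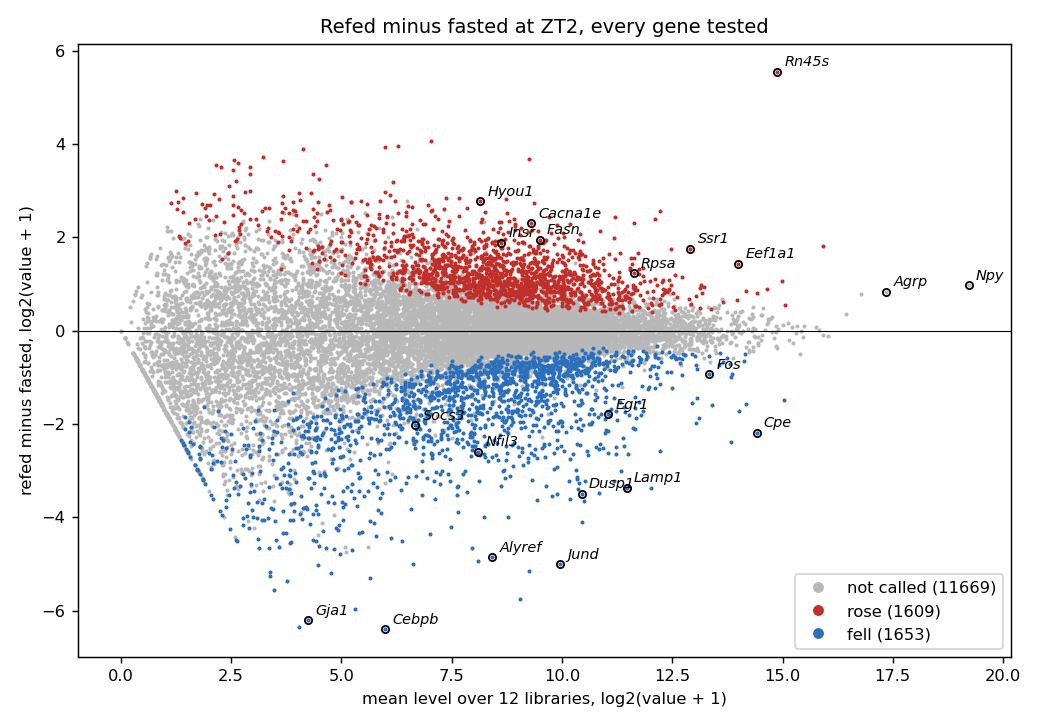
Refed minus fasted at ZT2 for each of the 14931 genes tested (vertical axis, log2(value + 1)) against the mean level over the 12 libraries (horizontal axis, same scale). Red points rose (1609), blue points fell (1653) and grey points were not called. Agrp and Npy lie at the far right, above 0 and not called, and the largest fall, of Cebpb (-6.39), reaches further from 0 than the largest rise, of Rn45s (5.55).

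No fall of the peptide genes that define these cells was detected after 1 hour. Agrp (chromosome 8, 105566698 to 105637393, mm10) read 291858, 191372, 127329, 338142 and 288772 normalised reads in refed replicates 1 to 5, and its lowest, median and highest fasted values were 81711, 131434 and 225297. Of the 5 refed libraries 3 lay above every fasted one, so that the groups overlapped, and the difference of 0.83 ± 0.35 did not pass (limma, adjusted p = 0.0841). It passed in edgeR's quasi-likelihood test (adjusted p = 0.043) and with the trend on GC content and length removed (1.08, adjusted p = 0.00471), and after quantile normalisation its sign turned (-0.22, adjusted p = 0.561). Npy (chromosome 6, 49822710 to 49829507) did not pass either, and read 1264467, 665137, 402679.5, 1801097 and 1004387 in refed libraries. Its lowest, median and highest fasted values were 223056, 400055 and 844191, and its difference was 0.98 ± 0.44 (limma, adjusted p = 0.112). Both remained above the ad libitum level, Agrp by 2.41 ± 0.36 (adjusted p = 2.14e-05) and Npy by 2.14 ± 0.46 (adjusted p = 0.00149), where ad libitum Agrp read 32495 to 68414.

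Other messages far above their ad libitum level in refed cells did not differ past the threshold between refed and fasted ones. Vgf, the precursor of secreted peptides, read 9497, 4465, 2796, 8812 and 2733 in refed libraries and 1902, 4446 and 13835 in fasted ones, with a difference of -0.04 ± 0.44 (adjusted p = 0.959) whose sign depended on the setting. In ad libitum cells it read 27.1 to 134. Nts, the neurotensin gene, differed between refed and fasted cells by 1.10 ± 0.81 (adjusted p = 0.356) and between refed and ad libitum cells by 8.76 ± 0.84 (adjusted p = 1.01e-08). For the cell cycle inhibitor gene Cdkn1a the figures were 1.46 ± 0.60 (adjusted p = 0.0801) and 7.55 ± 0.62 (adjusted p = 3.19e-10). Of 24 neuropeptide and granin genes tested, 0 rose and 3 fell (background 10.8% and 11.1%, median -0.05). The tally was 0 and 1 without refed replicate 4, and 5 and 2 with the trend on GC content and length removed. Of these 24 genes, 12 were above and 1 below their ad libitum level (background 9.01% and 8.72%).

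The peptide processing genes Pcsk1n and Cpe did fall. Of 13 genes tested in the list of processing enzymes, which holds Cpe but not Pcsk1n, 0 rose, 2 fell and 11 were not called. The fallen share of 15.4% was near the background of 11.1%, and the background of rises was 10.8%. Pcsk1n, whose product proSAAS inhibits the prohormone convertase PC1, read 20357, 5266, 3281, 1511 and 10177 in refed libraries and 15319, 29862 and 47724 in fasted ones, and fell by 2.38 ± 0.43 (adjusted p = 0.000102). Cpe, carboxypeptidase E, which trims the ends of cut peptides, read 31815, 6969.9, 4114, 8653 and 7547 against 25777, 37759 and 64962, and fell by 2.18 ± 0.37 (adjusted p = 3.44e-05). In both cases refed replicate 1 was the high one and lay within the fasted range, while the other 4 lay below it. Ad libitum cells read 4308 to 9207 for Cpe, below refed replicate 1, and 22252 to 31630.0 for Pcsk1n, above all 5 refed libraries. Their ZT5 minus PBS differences were 1.62 and 1.86.

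Of 17 AgRP neuron peptide and GABA genes tested, 3 rose, 1 fell and 13 were not called (background 10.8% and 11.1%, median 0.07). Among the genes that give AgRP neurons their identity, Gad2 and Acvr1c rose and Otp fell. Gad2, which makes GABA, read 3851, 5463, 6468, 8006 and 4424 in refed libraries and 1336, 2184 and 2703 in fasted ones (1.44 ± 0.29, adjusted p = 0.000316), and Acvr1c, the activin-type receptor ALK7, read 5213, 4888, 3081, 7539.5 and 2882 against 515, 967 and 1893 (2.15 ± 0.29, adjusted p = 1.14e-06). All 5 refed libraries lay above all fasted ones for both. Otp, a homeobox factor of these neurons, read 81.8, 51.1, 26.1, 15.1 and 38 against 91.1, 147 and 203 (-1.88 ± 0.44, adjusted p = 0.00197), with no overlap. For none of the 3 did refed and ad libitum cells differ past the threshold (adjusted p = 0.998, 0.202 and 0.981), and the ZT5 minus PBS differences were -1.54, -2.62 and 1.23.

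**Figure D2:**
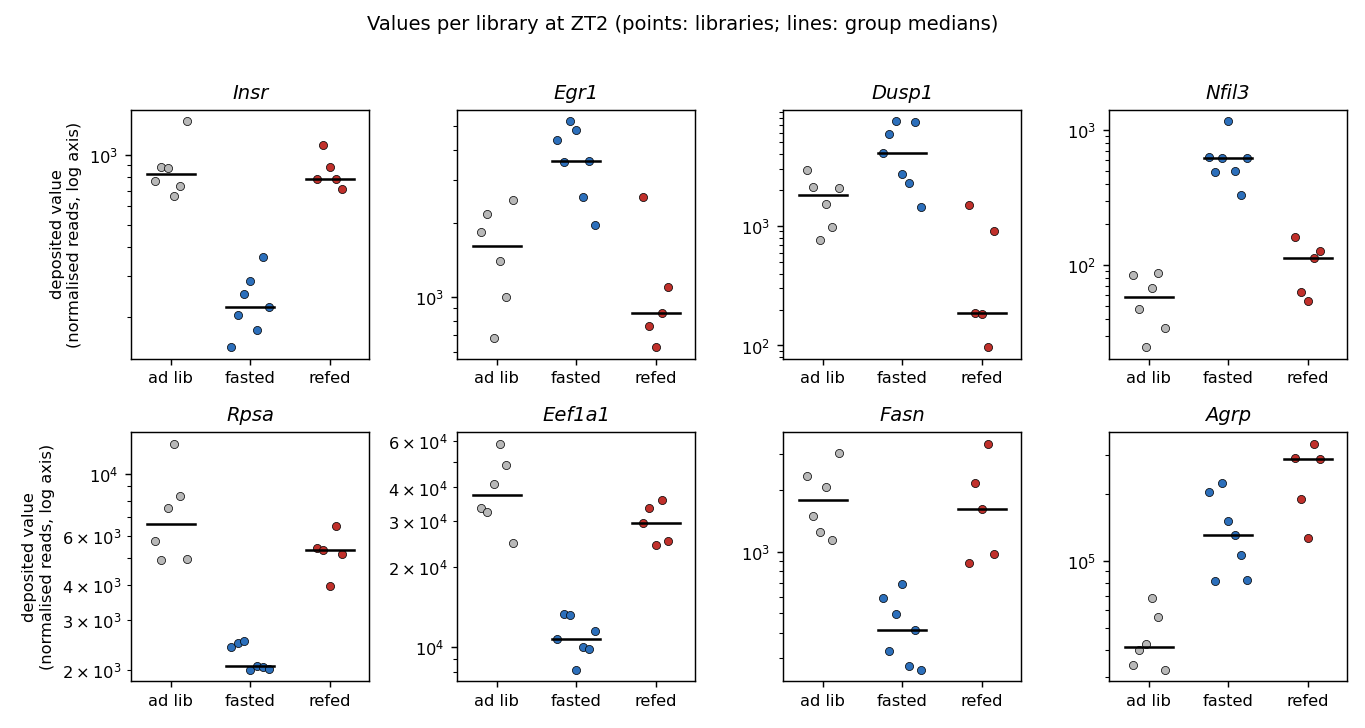
Normalised reads per library at ZT2 for 8 genes (vertical axes, log scale) in ad libitum, fasted and refed cells, with 1 point per library and a line at each group's median. For Insr, Nfil3, Rpsa, Eef1a1 and Fasn the 5 refed points are separate from the 7 fasted ones, for Egr1 and Dusp1 4 of the 5 are below all fasted points, and for Agrp 3 of 5 are above them.

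The receptor for insulin, the hormone that rises with a meal, had the lowest p-value of the feeding-related receptors tested. Insr (chromosome 8, 3122061 to 3279617) read 789, 1095, 882, 781 and 714 in refed libraries and 148, 221 and 363 in fasted ones, all 5 above all 7, a rise of 1.89 ± 0.29 (limma, adjusted p = 7.59e-06) to the range of ad libitum cells (661 to 1388). Its ZT5 minus PBS difference was -2.74. Along the pathway behind it, 15 of 37 insulin, PI3K, AKT and mTOR genes rose and 4 fell (background 10.8% and 11.1%), with a median of 0.72. The risen ones included Grb10, an adaptor that restrains the insulin receptor (1.17 ± 0.24, adjusted p = 0.000407), and Rictor, a subunit of the mTORC2 kinase (0.98 ± 0.22, adjusted p = 0.00102). In the other direction went Akt1, the kinase downstream of PI3K, which read 299, 204, 232, 320.4 and 246 against 548, 894 and 1794 (-1.83 ± 0.23, adjusted p = 2.34e-07), and Gsk3a, one of the kinases it inhibits (-2.37 ± 0.33, adjusted p = 1.67e-06). All 5 refed libraries were beyond all fasted ones for each of these 4 genes. With the trend on GC content and length removed, 4 of the pathway's genes rose and 4 fell, and Rictor was at 0.03 (adjusted p = 0.944). The list's ZT5 minus PBS median was -0.92.

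The genes of leptin signalling did not move as one. Lepr, the leptin receptor, read 2476, 1855, 1223, 3915 and 1042 in refed libraries and 392, 642 and 1675 in fasted ones, and rose by 1.32 ± 0.38 (adjusted p = 0.0114). Refed replicate 4 was the highest, 2 refed libraries lay within the fasted range, and the call was lost without that replicate (adjusted p = 0.0632), without the 3 libraries that stand apart (0.109) and with the trend removed (0.114). Ghsr, the ghrelin receptor, was also highest in that library (1233, 610.1, 485, 2423 and 425, against 198, 392 and 859.9) and did not pass by limma (adjusted p = 0.0513), while it passed in 9 of 25 alternatives, edgeR among them (adjusted p = 0.0242). Over the 25 its adjusted p ran from 0.0131 to 0.397. Cish, a cytokine-induced inhibitor of JAK-STAT signalling, read 882, 843, 1102, 679 and 859 against 35.9, 294 and 432, with no overlap (1.95 ± 0.54, adjusted p = 0.00753). It also lay 2.48 ± 0.55 above ad libitum cells (adjusted p = 0.00224), and its ZT5 minus PBS difference was -0.62. The other inhibitors went down: Socs1 read 106, 4.14, 8.69, 2.75 and 31.7 against 62.6, 182 and 313 (-3.34 ± 0.77, adjusted p = 0.00149), and Socs3 68.9, 53.8, 104, 6.88 and 57 against 36.6, 185 and 519.8 (-2.03 ± 0.61, adjusted p = 0.0144). For Socs1 4 refed libraries lay below all fasted ones, and for Socs3 1 did, replicate 4, without which the call was lost (adjusted p = 0.0978), as it was with the trend removed (0.071) and without the 3 libraries that stand apart (0.241). Lifr, the receptor for leukaemia inhibitory factor, rose from 17.9, 73.4 and 124 to 199, 204, 240.3, 461 and 155 (1.93 ± 0.36, adjusted p = 0.000127; ZT5 minus PBS -4.62). Over the list of 22 genes 5 rose and 2 fell (background 10.8% and 11.1%). This became 3 and 1 without refed replicate 4, and 1 and 1 without the 3 libraries that stand apart, when Cish no longer passed (adjusted p = 0.0601).

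Of other receptors, Adipor1, the adiponectin receptor, fell from 819, 989 and 1214 to 721, 460.3, 509, 620.2 and 384 with no overlap (-0.91 ± 0.18, adjusted p = 0.000343, ZT5 minus PBS 0.22). Among FoxO factors and genes that FoxO factors induce in fasting, 1 of 23 rose and 4 fell (background 10.8% and 11.1%, median 0.02). The tally was 1 and 2 without refed replicate 4, and 3 and 2 with the trend removed. Pik3ip1, an inhibitor of PI3K, was lower in all 5 refed libraries (219.6, 146, 120.1, 93.5 and 228) than in every fasted one (233, 328 and 932; -1.27 ± 0.33, adjusted p = 0.00433) and below ad libitum cells as well (-1.75 ± 0.34, adjusted p = 0.000578). Without the 3 libraries that stand apart its adjusted p was 0.0881. Cdkn1b, the p27 inhibitor of the cell cycle, rose from 2.23, 20.4 and 46.7 to 49.1, 91.8, 104, 138 and 91.8 (2.33 ± 0.54, adjusted p = 0.00153, ZT5 minus PBS -2.42).

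Several genes switched on by neuronal activity fell after food. Immediate early genes are transcribed within minutes of firing or growth factor input and their messages decay within the hour. Of 28 tested, 0 rose and 10 fell (background 10.8% and 11.1%), with a median difference of -1.49. The median was -0.78 without refed replicate 4 and -0.87 with the GC and length trend removed. It was -0.39 without the 3 libraries that stand apart. Egr1, a zinc finger factor, read 2566, 761, 624, 861 and 1099 in refed libraries against 1971, 3605 and 5214 in fasted ones and fell by 1.79 ± 0.35 (limma, adjusted p = 0.000222). Refed replicate 1 was high, within the fasted range, and the other 4 were below every fasted library. Junb, an AP-1 subunit, read 1307, 977, 1276, 844 and 1117 against 1992, 3191 and 6596 without overlap (-1.53 ± 0.33, adjusted p = 0.000881). Ier2 read 132, 29, 91.7, 15.1 and 159 against 208, 329 and 3144, again without overlap (-3.08 ± 0.71, adjusted p = 0.00157). The highest fasted values of Ier2 were those of replicate 6 (3144) and replicate 3 (2147), both among the libraries that stand apart. For Egr1, Junb and Ier2 the ZT5 minus PBS difference was small, at 0.07, 0.11 and -0.24.

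Dusp1, a phosphatase that switches off MAP kinases, showed one of the larger falls of the list. It read 1492, 188, 184, 96.3 and 902 in refed libraries and 1438, 4074 and 7498 in fasted ones (-3.49 ± 0.53, adjusted p = 7.68e-06), and fell below the ad libitum range of 768 to 2948 in 3 refed libraries (-2.20 ± 0.55 against ad libitum cells, adjusted p = 0.00547). Its ZT5 minus PBS difference was 1.23. Fos, the most used marker of recent firing, moved less, from 8039.9, 13537 and 19645 to 6385, 9125, 7614, 5034 and 8322 (-0.93 ± 0.29, adjusted p = 0.0171), and 3 of the 5 refed libraries lay below all fasted ones. Its call was lost without refed replicate 4 (adjusted p = 0.0667), with library weights (0.24) and with the GC and length trend removed (0.137). The last also ended the call of Junb (0.251) but not that of Egr1 (0.00034), Ier2 or Dusp1. Jund, an AP-1 subunit with a very GC-rich message, fell furthest of the list, from 2759.7, 4357 and 5755 to 309.6, 130.4, 83.8, 92.1 and 118 (-5.00 ± 0.34, adjusted p = 3.46e-13), with a ZT5 minus PBS difference of 4.99 that mirrored it. The rarer messages Nr4a1 (11.7, 4.14, 2.37, 0 and 3.17 against 4.71, 27.8 and 124, -2.92 ± 0.79, adjusted p = 0.00637) and Maff (26.9, 4.14, 2.37, 5.5 and 2.11 against 13.2, 28 and 101, -2.47 ± 0.55, adjusted p = 0.00118) fell too. Without the 3 libraries that stand apart 5 of the 28 genes fell, and Fos, Ier2 and Nr4a1 no longer passed (adjusted p = 0.221, 0.0903 and 0.0803).

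Many activity genes are driven through the cAMP response element, the site of the factor CREB, and CREB-driven transcription is high in AgRP neurons of fasted animals. The full palindrome TGACGTCA, which reads the same on both strands, was searched in the 250 bases before each RefSeq start (GRCm38.p6). It was present for 3.0% of the 10511 tested genes matched by symbol, for 3 of the 22 matched immediate early genes, and for 2 of the 8 matched ones that fell, Dusp1 and Maff. Their promoters are printed because they are the sequences of this list in which the site was found, with the 8 bases of the site in capitals. The Dusp1 stretch is chr17:26508473-26508722 on the minus strand, and that of Maff is chr15:79347270-79347519 on the plus strand, before 1 of its RefSeq starts.
Dusp1: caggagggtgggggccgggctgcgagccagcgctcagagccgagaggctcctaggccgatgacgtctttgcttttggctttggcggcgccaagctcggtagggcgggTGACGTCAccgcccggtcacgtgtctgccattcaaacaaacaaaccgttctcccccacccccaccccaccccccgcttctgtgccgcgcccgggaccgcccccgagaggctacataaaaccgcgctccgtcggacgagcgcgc
Maff: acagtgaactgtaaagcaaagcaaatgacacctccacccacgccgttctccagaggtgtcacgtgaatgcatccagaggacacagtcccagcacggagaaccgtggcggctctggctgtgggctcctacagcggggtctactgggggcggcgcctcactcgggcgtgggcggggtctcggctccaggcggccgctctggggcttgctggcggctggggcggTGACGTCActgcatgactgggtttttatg
The site begins 143 bases before the start in Dusp1 and 29 bases before it in Maff. The palindrome was held by 3.43% of the genes that rose and 3.87% of those that fell, both close to the 3.0% of all genes tested.

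Creb1, the gene of CREB, rose together with Crebbp and Ep300, genes of its coactivators. Over the 20 CREB target and regulator genes tested 5 rose and 3 fell (background 10.8% and 11.1%, median 0.09). Without the 3 libraries that stand apart 4 rose and 1 fell. Creb1 read 378, 577, 766, 353 and 454 against 117, 179 and 226 (1.54 ± 0.25, adjusted p = 1.65e-05), Crebbp, the CREB-binding acetyltransferase, 453, 690.2, 484, 689 and 449.7 against 93.2, 190.4 and 304 (1.59 ± 0.29, adjusted p = 0.000112), and its relative Ep300 557, 1341, 733, 1301 and 504 against 138, 271 and 335 (1.77 ± 0.28, adjusted p = 1.56e-05). None of the 3 overlapped between the groups, and in each the refed values lay close to the ad libitum range (adjusted p of refed against ad libitum = 0.666, 0.35 and 0.803). Their ZT5 minus PBS differences were -1.57, -3.17 and -1.57, and Creb1 was not called with the GC and length trend removed (adjusted p = 0.0616).

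Ribosomal protein messages rose in many cases and fell in none. Of 76 cytosolic ribosomal protein genes tested, 39 rose and 0 fell (background 10.8% and 11.1%), every one had a difference above 0 (0.13 to 1.34), and the median was 0.71 against -0.06 over all genes. Rpsa, the laminin receptor protein of the small subunit, read 5437, 5344, 3979.5, 6529 and 5152 in refed libraries and 2003, 2062 and 2532 in fasted ones (1.24 ± 0.22, limma adjusted p = 7.12e-05). Rps20 rose by 1.27 ± 0.27 (adjusted p = 0.000585), Rps18 by 1.10 ± 0.22 (0.000406), Rpl22 by 1.12 ± 0.23 (0.000406), Rpl14 by 1.09 ± 0.24 (0.0012) and Rps15a by 1.09 ± 0.25 (0.00122). For all 6 genes every refed library was above every fasted one. In refed replicate 3 each of the 6 had its lowest refed value. Between refed and ad libitum cells 0 of the 76 genes were called by limma (background 9.01% above and 8.72% below, median -0.27). An unadjusted p under 0.05 was found for 9 of the 76, against 4701 of all 14931 genes. The ZT5 minus PBS median of the list was 0.17, and the value for Rpsa was -0.72. The count of risen genes was 65 with the GC and length trend removed. It was 25 without refed replicate 2 and 25 without refed replicate 5, and 24 without the 3 libraries that stand apart, with 0 fallen in each of these. Rps15a alone of the 6 lost its call with the trend removed (adjusted p = 0.0732). Pseudogene copies of ribosomal protein genes can share reads with them, and how the counting treated such reads is not given in the sources used here.

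The elongation factor genes Eef1a1 and Eef2 rose as well, but Eef1a2 went the other way. Eef1a2 read 294, 304, 235, 212 and 148 in refed libraries and 335, 540 and 795 in fasted ones, with no overlap. Eef1a1, which brings charged tRNA to the ribosome, read 29439, 33335, 24169, 35786 and 25049.8 in refed libraries and 8186, 10699 and 13282 in fasted ones (1.44 ± 0.20, adjusted p = 1.93e-06), with no overlap and a ZT5 minus PBS difference of -0.81. Eef2, which moves the ribosome along, read 5623, 7305, 4899.5, 9246 and 3573 against 1984, 2367 and 4005 (1.16 ± 0.21, adjusted p = 8.79e-05), with refed replicate 5 inside the fasted range. Among initiation factors Eif3a, the largest subunit of eIF3, rose from 1568, 1819 and 2567 to 4839, 6365, 5329.5, 6592 and 5512 (1.55 ± 0.19, adjusted p = 1.77e-07) and the scaffold Eif4g1 from 259.8, 485 and 1514 to 1713, 1820.0, 1689, 4171 and 1168 (1.86 ± 0.40, adjusted p = 0.000822). Eif2b5, the catalytic subunit of the exchange factor for eIF2, fell from 878, 1349 and 1572 to 850.5, 371, 156, 229.6 and 308 (-1.90 ± 0.30, adjusted p = 1.26e-05). Over 44 initiation and elongation factors 8 rose and 4 fell (background 10.8% and 11.1%, median 0.19). Neither the size nor the direction of this tally was stable: it was 17 and 4 with the GC and length trend removed and 13 and 4 by edgeR, but 5 and 5 without refed replicate 4 and 4 and 5 without the 3 libraries that stand apart.

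Ribosomal protein and elongation factor messages begin with a run of pyrimidines, the TOP tract, through which mTORC1 and LARP1 control their translation and stability. A tract, taken here as a C followed by at least 4 C or T bases and beginning within 5 bases of a RefSeq start on the gene's strand, was found for 28 of the 55 matched ribosomal protein genes (50.9%). It was found for 23.8% of all 10511 matched genes tested and for 12 of 47 matched oxidative phosphorylation genes (25.5%). Among ribosomal protein genes it was not more frequent in those that rose (10 of 25) than in those not called (18 of 30). The 30 bases around the start of the 4 described genes that rose and hold a tract so defined are printed here. Capitals mark the stretch that met the definition, which need not be the TOP tract of the message. In Eef1a1 it begins 1 base before the annotated start. These genes were chosen because they hold a tract, so that its presence in all 4 is not a result.
Eef1a1: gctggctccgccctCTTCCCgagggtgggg
Rps18: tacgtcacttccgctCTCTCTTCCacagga
Rps15a: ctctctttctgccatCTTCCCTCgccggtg
Rpl14: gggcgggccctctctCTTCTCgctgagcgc
They lie at chr9:78481710-78481739 (minus), chr17:33955651-33955680 (minus), chr7:118116133-118116162 (minus) and chr9:120571502-120571531 (plus) of GRCm38.p6. In none of the windows does the annotated start need to be the one these cells use, and a tract that lies elsewhere is missed.

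The ribosomal RNA precursor Rn45s rose furthest of all genes tested. It read 137697, 652629, 227790.1, 562715 and 161666 in refed libraries and 1725, 8609 and 15466 in fasted ones (5.55 ± 0.55, adjusted p = 2.18e-09), while ad libitum cells read 161685 to 715369, and its ZT5 minus PBS difference was -6.79. It made up 0.86 to 4.54% of the normalised reads of refed libraries and 0.0116 to 0.113% of those of fasted ones. Of 45 ribosome biogenesis genes, Rn45s included, 13 rose and 3 fell (background 10.8% and 11.1%, median 0.24). Without the 3 libraries that stand apart 4 rose and 4 fell. Ddx21, a nucleolar helicase, read 396, 255, 372, 1271 and 216 against 71.2, 127 and 267 (1.58 ± 0.32, adjusted p = 0.00035), while the assembly factors Rrs1 (134, 46.9, 68, 56.4 and 47.5 against 191, 306 and 417, -2.13 ± 0.36, adjusted p = 3.57e-05) and Noc2l (226, 69.7, 104, 77 and 58 against 343, 568 and 777, -2.48 ± 0.29, adjusted p = 6.5e-08) fell.

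The route of secreted proteins through the endoplasmic reticulum and the Golgi was raised in part. Of 51 genes of translocation and transport 12 rose and 2 fell (background 10.8% and 11.1%, median 0.24). Of the same 51 genes 27 were above and 0 below their ad libitum level (background 9.01% and 8.72%). Ssr1, a subunit of the translocon-associated complex, read 17399.8, 10829, 16912, 35297 and 8387 in refed libraries and 3245, 4606 and 8107 in fasted ones (1.75 ± 0.25, adjusted p = 2.02e-06). Srp72, of the signal recognition particle, read 3852, 4015, 3919.5, 7064 and 3616 against 2054, 2424 and 2937 (0.81 ± 0.14, adjusted p = 7.8e-05), and Kdelr2, which returns escaped proteins to the endoplasmic reticulum, 1184, 1213, 901, 2149 and 951 against 353, 477 and 561 (1.39 ± 0.20, adjusted p = 2.08e-06). In all 3 the groups did not overlap and refed replicate 4 was the highest. Tmed2, a cargo receptor of transport vesicles, went the other way, from 1299, 1711 and 2398 to 879.7, 195, 87.7, 336 and 243 (-2.71 ± 0.36, adjusted p = 8.96e-07, ZT5 minus PBS 2.90). The list gave 6 risen and 3 fallen without refed replicate 4, 19 and 2 with the GC and length trend removed, 8 and 1 without fasted replicate 7, and 4 and 3 without the 3 libraries that stand apart.

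Among chaperones of the endoplasmic reticulum 3 of 28 rose and 0 fell, a risen share of 10.7% that was near the background of 10.8%. The background of falls was 11.1%. The tally was 3 and 2 without refed replicate 4, and 2 and 2 without the 3 libraries that stand apart. It was 5 and 1 with the trend removed. Hyou1, a large chaperone induced by unfolded protein, read 530.4, 1282, 755, 2155 and 449.7 against 69, 112 and 342 (2.77 ± 0.58, adjusted p = 0.000583, ZT5 minus PBS -5.33), and Atf6, a sensor of unfolded protein, 660.1, 517, 382, 1860.5 and 372 against 90.7, 133 and 459 (1.97 ± 0.43, adjusted p = 0.000832, ZT5 minus PBS -0.59). Again 16 of the 28 were above the ad libitum level. In the cytosol Cct3, a subunit of the chaperonin that folds actin and tubulin, rose from 5031, 5908 and 8104 to 9969, 8471, 8954, 11475 and 11259 (0.67 ± 0.15, adjusted p = 0.000951). The heat shock factor Hsf2 rose from 59, 109 and 137 to 426, 431, 320.1, 359 and 416 (2.04 ± 0.34, adjusted p = 2.95e-05) and its relative Hsf1 fell from 629, 834 and 1068 to 666, 474, 594, 602 and 312 (-0.75 ± 0.19, adjusted p = 0.00428).

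The fat synthesis genes Fasn and Acaca rose. Fasn, fatty acid synthase, read 877, 2166, 1620.3, 3391 and 976 in refed libraries and 263, 412 and 691 in fasted ones (1.95 ± 0.41, limma adjusted p = 0.00066), and Acaca, the acetyl-CoA carboxylase that feeds it, 239.5, 357, 339, 315 and 270.2 against 62.7, 100.1 and 179 (1.61 ± 0.32, adjusted p = 0.000287). All 5 refed libraries lay above all fasted ones for both. In ad libitum cells Fasn read 1142 to 3048 and Acaca 328 to 744, so that 3 refed libraries stayed below the lowest ad libitum one for Acaca. Insig2, which holds the SREBP factors back in the endoplasmic reticulum, fell from 3470.4, 3738 and 4069 to 2486, 2471, 2894, 1584 and 2630.4 (-0.65 ± 0.14, adjusted p = 0.000857), with no overlap. Over 33 genes of cholesterol synthesis and SREBP targets 7 rose and 2 fell (background 10.8% and 11.1%, median 0.06). Without the 3 libraries that stand apart 4 rose and 1 fell. ZT5 minus PBS was -1.90 for Fasn, -1.50 for Acaca and 0.67 for Insig2.

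Of 27 genes of fatty acid oxidation, ketone use and uncoupling 0 rose and 4 fell (median -0.43). The fallen share of 14.8% was near the 11.1% of all genes tested. The tally was 1 and 2 with the GC and length trend removed, 0 and 7 without refed replicate 5, and 1 and 6 without fasted replicate 4. Cpt2, which passes acyl chains into the mitochondrial matrix, read 390.2, 509, 424, 242 and 354 against 377, 647 and 829 (-0.76 ± 0.20, adjusted p = 0.00567). The short-chain dehydrogenase Acads read 61.9, 35.9, 30, 26.1 and 26.4 against 62.3, 99.2 and 201 (-1.60 ± 0.39, adjusted p = 0.00235), and Acat1, the acetyl-CoA acetyltransferase of ketone use, 3353, 2962, 3233, 2626 and 3173 against 3361, 4234 and 4725 (-0.44 ± 0.12, adjusted p = 0.00668). Cpt2 and Acads lost their calls with the GC and length trend removed (adjusted p = 0.127 and 0.0763). Of 60 nuclear genes of oxidative phosphorylation 0 rose and 2 fell (background 10.8% and 11.1%, median 0.11), and 15 rose and none fell in the fit without that trend. The 30 glucose transport and glycolysis genes gave 0 risen and 3 fallen, a fallen share of 10% that was near the background of 11.1%. That tally was 0 and 1 without the 3 libraries that stand apart. The 34 proteasome and ubiquitin genes gave 0 and 0 by limma, edgeR and DESeq2, with differences between -0.39 and 0.50. By limma 0 of the 34 had an unadjusted p under 0.05, against 5066 of all 14931 genes tested. With the GC and length trend removed 8 of the proteasome and ubiquitin genes rose and 0 fell, with a median of 0.33.

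Clock genes moved singly. The core clock is a loop in which CLOCK and BMAL1 (the product of Arntl) drive Per, Cry and Rev-erb genes that in turn repress them. Nfil3, a repressor that acts on clock outputs, read 161, 62.8, 54.5, 113 and 127 in refed libraries and 328, 621 and 1160.3 in fasted ones, without overlap, and fell by 2.60 ± 0.35 (adjusted p = 1.09e-06, ZT5 minus PBS 1.41). Csnk1e, a kinase of PER proteins, read 562, 287, 250.5, 316 and 255 against 492, 866 and 1474 (-1.45 ± 0.24, adjusted p = 3.15e-05), with refed replicate 1 within the fasted range and a ZT5 minus PBS difference of -0.12. Cry1, a repressor of the loop, read 424, 193, 113, 102 and 171 against 301, 449 and 659.7 (-1.37 ± 0.36, adjusted p = 0.00539, ZT5 minus PBS -0.14) and was still 2.05 ± 0.37 above ad libitum cells (adjusted p = 0.000309). Clock itself rose from 195, 230.3 and 337 to 463, 636, 589.6, 586 and 553 (1.21 ± 0.27, adjusted p = 0.0012), a call lost with the GC and length trend removed (adjusted p = 0.457). Arntl (-0.48 ± 0.27, adjusted p = 0.215), Per2 (1.09 ± 0.44, adjusted p = 0.0701) and Nr1d1 (-0.68 ± 0.34, adjusted p = 0.149) did not pass. Refed replicate 4 was the highest of the refed libraries for Nr1d1 and for Per2 (144, 142, 112, 525 and 141, and 158, 193, 45, 388 and 135) and the lowest for Arntl (634, 974, 557, 315 and 817). Without it Nr1d1 passed (adjusted p = 0.0138). In all, 2 of 24 clock genes rose and 4 fell (background 10.8% and 11.1%). The tally was 1 and 6 without refed replicate 4, and 0 and 6 with the GC and length trend removed.

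Ion channel genes changed in both directions. Of 36 calcium, sodium, HCN and TRP channel genes 9 rose and 6 fell (background 10.8% and 11.1%, median 0.33). Cacna1e, the pore of the R-type calcium channel, read 1507, 1593, 2131, 1898 and 1068 in refed libraries and 218, 311 and 436 in fasted ones (2.31 ± 0.35, limma adjusted p = 8.72e-06), and Scn2a1, a sodium channel of the axon, 1886, 2763, 2897, 3007 and 2009 against 456, 816 and 1002 (1.73 ± 0.25, adjusted p = 4.16e-06). Genes of a channel subunit and of a pacemaker channel fell. The calcium channel subunit Cacna2d3 read 78.3, 89, 244, 37.1 and 138 against 229.7, 394 and 495 (-1.87 ± 0.30, adjusted p = 1.38e-05) and the pacemaker channel Hcn2 7.01, 13.8, 10.3, 0 and 7.39 against 44.9, 81.3 and 188 (-3.69 ± 0.58, adjusted p = 1.13e-05). The groups were separate for Cacna1e, Scn2a1 and Hcn2. All 4 calls held with the trend on GC content and length removed, but the list then gave 3 risen and 7 fallen, so that its larger number of rises did not hold. ZT5 minus PBS was -1.80 and -1.79 for the risen genes and 2.15 and 3.45 for the fallen ones.

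Of 38 potassium channel genes 6 rose and 1 fell (background 10.8% and 11.1%, median 0.39). Kcnd3, of the A-type current that delays firing, rose from 85.2, 209.7 and 310.2 to 419, 484, 364, 292 and 544 (1.12 ± 0.27, adjusted p = 0.0024, and 0.294 with the trend removed). Receptor genes for GABA gave 4 risen and 0 fallen of 16 (background 10.8% and 11.1%). The tally was 2 and 0 without refed replicate 4, and 2 and 3 with the trend removed. It was 1 and 0 without the 3 libraries that stand apart. Among the risen was Gabre, the epsilon subunit, from 54.8, 274 and 376 to 574, 1178, 497, 1158 and 553 (1.89 ± 0.42, limma adjusted p = 0.00119). Glutamate receptor and scaffold genes gave 4 and 4 of 30 (13.3% each, near the background of 10.8% and 11.1%). The tally was 2 and 3 without refed replicate 2, and 2 and 3 with the trend removed. The postsynaptic scaffold Shank1 rose from 208, 278 and 374 to 1061, 915, 919, 459 and 1278 (1.66 ± 0.30, adjusted p = 0.000115), and Cnih2, a partner of AMPA receptors, fell from 2923, 5427 and 6814 to 1354, 202, 152, 161 and 206 (-4.10 ± 0.44, adjusted p = 1.48e-08, ZT5 minus PBS 4.91). At the release site 7 of 33 genes rose and 3 fell (background 10.8% and 11.1%). The tally was 6 and 6 without the 3 libraries that stand apart, and 4 and 3 with the GC and length trend removed. The active zone protein Bsn rose from 60.5, 116 and 156 to 292, 433, 282, 278 and 272 (1.60 ± 0.26, adjusted p = 2.1e-05), Rims2 from 229, 370.3 and 679 to 730.2, 806, 828, 675 and 648 (1.02 ± 0.23, adjusted p = 0.0011) and the vesicle protein Sv2c from 99.3, 212 and 410.2 to 421, 923, 616, 1502 and 355 (1.87 ± 0.36, adjusted p = 0.000214). Syn2, which tethers vesicles, fell from 964, 1210.3 and 2262 to 456, 714, 752, 279 and 728 (-1.30 ± 0.31, adjusted p = 0.00186). Rims2 and Syn2 stayed below ad libitum cells (-1.11 ± 0.23 and -1.69 ± 0.32, adjusted p = 0.00139 and 0.000392).

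**Figure D3:**
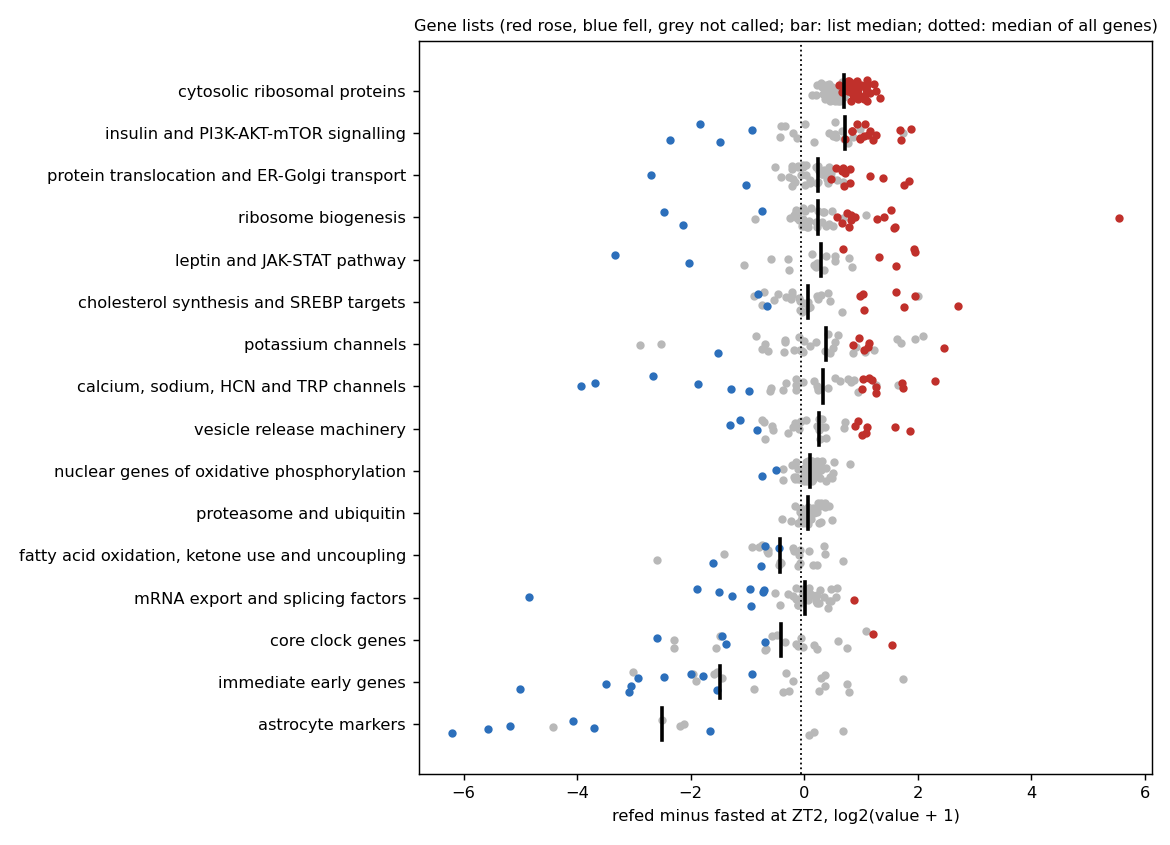
Refed minus fasted at ZT2 (horizontal axis, log2(value + 1)) for the tested members of 16 gene lists, 1 point per gene, red where it rose, blue where it fell and grey where it was not called, with a bar at each list's median and a dotted line at the median of all genes. All points of the ribosomal protein list lie to the right of 0, those of the immediate early genes and astrocyte markers lie mostly to the left, and the channel lists spread to both sides.

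Many of the largest single changes had a ZT5 minus PBS difference of like size and opposite sign. Cebpb, a transcription factor of the C/EBP family, read 7.01, 2.07, 3.95, 4.12 and 3.17 in refed libraries and 181, 381 and 1048 in fasted ones (-6.39 ± 0.62, adjusted p = 1.61e-09, ZT5 minus PBS 6.40). Alyref, which hands spliced messages to the export machinery, read 81.8, 25.5, 32.4, 60.5 and 57 against 964, 1216 and 2363 (-4.86 ± 0.37, adjusted p = 5.28e-12, ZT5 minus PBS 4.94). Of 39 mRNA export and splicing genes 1 rose and 8 fell (background 10.8% and 11.1%, median 0.01). Among the fallen were the splicing factors Srsf2, from 2898, 3289.6 and 4539 to 897, 712, 1199.8, 1277 and 711 (-1.89 ± 0.22, limma adjusted p = 8.51e-08), and Hnrnpd, from 1097, 1429.6 and 1758 to 661, 797, 690.0, 826 and 735 (-0.93 ± 0.18, adjusted p = 0.000304). Klf2, a zinc finger factor (-4.70 ± 0.60), Rras, a small GTPase (-4.31 ± 0.65), and Dapk3, a death-associated kinase (-4.94 ± 0.30), also fell without overlap (adjusted p = 4.07e-07, 6.51e-06 and 5.74e-14).

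Lysosomal Lamp1, a coat protein of the lysosome membrane, read 731, 638, 573, 881 and 851 against 6438, 7161 and 10458 (-3.36 ± 0.22, adjusted p = 2.38e-13, ZT5 minus PBS 3.51). The autophagy genes Atg3 (1129.8, 282, 258, 208 and 385 against 1580.4, 1736 and 2419, -2.34 ± 0.31, adjusted p = 6.67e-07) and Gabarapl1 (4054, 2254, 2697, 5249 and 2194 against 4091, 5232 and 11346, -0.93 ± 0.24, adjusted p = 0.00517, and 0.0886 with the GC and length trend removed) fell as well. Of 38 autophagy and lysosome genes 1 rose and 5 fell, a fallen share of 13.2% that was near the background of 11.1%, and 6 rose and 5 fell with that trend removed. The largest rises after Rn45s included Lnpep, an aminopeptidase that travels with glucose transporter vesicles and answers insulin. It read 312, 959, 635, 1167 and 645 in refed libraries and 17.5, 49.5 and 76.7 in fasted ones (4.07 ± 0.45, adjusted p = 2.5e-08). The receptor gene Bmpr2 (3.94 ± 0.72), the helicase gene Ddx6 of messenger storage granules (3.67 ± 0.50) and the Ras regulator gene Nf1 (2.83 ± 0.31) stood beside it (adjusted p = 0.000102, 1.32e-06 and 1.53e-08), with ZT5 minus PBS differences of -3.19 for Lnpep, -5.51 for Bmpr2, -4.54 for Ddx6 and -3.31 for Nf1.

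Of all 14931 genes tested, 4251 (28.5%) had a ZT5 minus PBS difference of at least 1 opposite in sign to the refeeding difference and 1690 one of at least 1 with the same sign. By comparison, 984 of the 1609 genes that rose (61.2%) had a ZT5 minus PBS difference of at least 1 in the opposite direction, and 4 one of at least 1 in the same direction. Of the 1653 that fell, 690 (41.7%) and 128 did so. A ZT5 minus PBS difference under 1 in size was found for 835 fallen and 621 risen genes. Among them were Egr1, Junb, Ier2, Fos, Csnk1e and Cry1 of the falls and Cish, Rpsa, Eef1a1, Grb10 and Atf6 of the rises. This cut takes no account of the size of the refeeding difference. For Rpsa and Eef1a1 the ZT5 minus PBS difference, given above, was opposite in sign and not small beside the rise. The cut therefore does not set them clear of whatever set the ZT5 libraries apart.

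**Figure D4:**
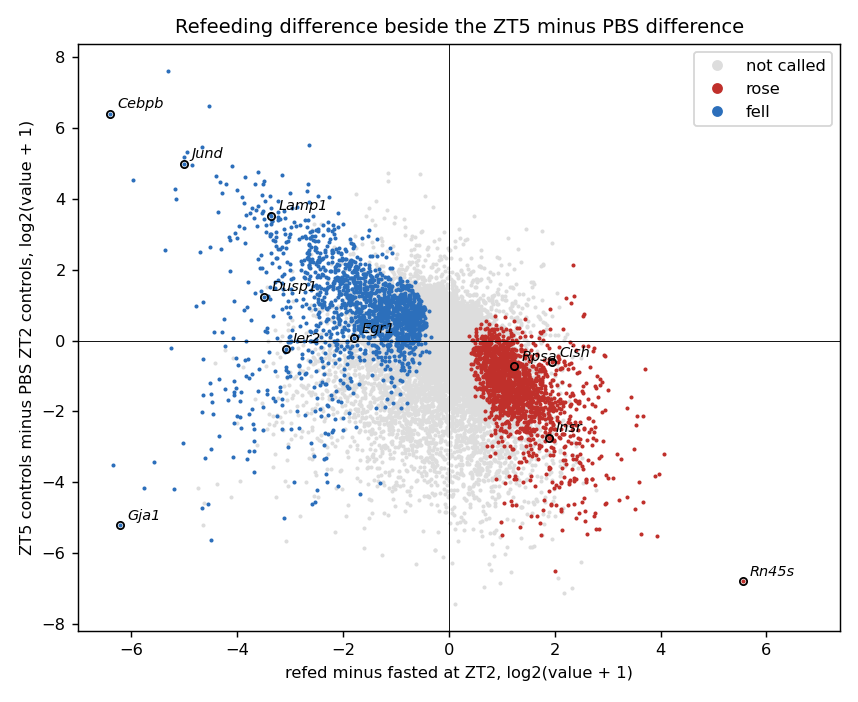
The difference between ZT5 controls and PBS-injected ZT2 controls (vertical axis, log2(value + 1)) against refed minus fasted at ZT2 (horizontal axis, same scale), 1 point per gene tested. Cebpb, Jund, Lamp1 and Rn45s lie far out on the falling diagonal, while Egr1 and Ier2 fell with refeeding at a vertical position near 0.

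Astrocyte markers differed between the groups too. Of 13 astrocyte markers 0 rose and 6 fell (background 10.8% and 11.1%, median -2.50). The gap junction gene Gja1 read 0, 0.69, 0, 0 and 4.22 in refed libraries and 7.74, 43.6 and 2378 in fasted ones (-6.21 ± 1.43, adjusted p = 0.00157), Sox9 9.35, 7.59, 8.69, 1.38 and 41.2 against 46, 83.7 and 1897 (-4.08 ± 0.94, adjusted p = 0.00158) and the glutamate transporter gene Slc1a3 1.17, 0, 0, 0 and 0 against 0, 29.6 and 3332 (-5.57 ± 1.71, adjusted p = 0.0167). The top fasted value is that of replicate 6 in each. Apoe, the lipid carrier of glia, read 438, 2.76, 25.3, 37.1 and 231 against 518, 774 and 93512 (-5.75 ± 1.61, adjusted p = 0.00881), with the same library at the top. The 13 markers summed to 1841 to 3231 in refed and 3050.4 to 44253.8 in fasted libraries, and Gjb6 and Fgfr3 were at 0 in all refed ones. Without the 3 libraries that stand apart 1 astrocyte marker fell, and Sox9, Slc1a3 and Apoe no longer passed (adjusted p = 0.0702, 0.215 and 0.133). Of 11 tanycyte and ependymal markers 1 fell, as did 1 of 6 oligodendrocyte markers and 1 of 13 markers of other hypothalamic neurons, and none of these rose. By limma 0 of 6 POMC neuron, 6 microglia, 8 endothelial and mural and 2 oligodendrocyte precursor markers were called, with 4, 0, 1 and 0 at an unadjusted p under 0.05. By edgeR 2, 1, 1 and 0 of these fell. For the lists with limma calls, edgeR called 8 of 13 astrocyte and 4 of 11 tanycyte and ependymal markers fallen. It called 2 of 6 oligodendrocyte markers and 3 of 13 markers of other hypothalamic neurons fallen. The tanycyte and ependymal gene Col23a1 fell from 12.2, 73.1 and 2212 to 1.17, 9.66, 30, 0 and 5.28 (-4.28 ± 1.01, adjusted p = 0.00192, and 0.0709 without those 3). Pomc, the peptide gene of the neighbouring satiety neurons, read 370.4, 514, 243, 363 and 589 against 307, 557 and 30969.5, its top value being that of fasted replicate 3, and did not pass by limma (adjusted p = 0.117) while it did by edgeR (0.0101). Fewer cells of a type and less RNA per cell cannot be told apart in such pooled cells. The part of these markers in the other results was not tested.

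Refeeding at ZT14 shared no library with the comparison at ZT2 and gave a similar list. There 950 genes rose (6.36%) and 791 fell (5.3%). Of the genes that rose at ZT2, 758 also rose at ZT14 (47.1% of the 1609 and 79.8% of the 950), and of those that fell 659 also fell (39.9% of the 1653 and 83.3% of the 791). No gene called at both times had opposite signs. The contrast in Rn45s was present at ZT14 too, at 0.932 to 3.51% of the normalised reads in refed and 0.0148 to 0.0681% in fasted libraries. Cebpb read 0.935 to 11.3 in refed and 169.7 to 1384.8 in fasted libraries at ZT14. How far the shared list rests on a difference between whole groups, like the ZT5 minus PBS one, was not tested. Insr rose by 1.72 ± 0.30 at ZT14, Nfil3 fell by 3.12 ± 0.37, Egr1 by 1.42 ± 0.36, and Eef1a1 rose by 1.30 ± 0.21 (adjusted p = 0.000108, 1.11e-07, 0.00711 and 3.28e-05). For Dusp1 (-0.95 ± 0.56), Socs1 (0.42 ± 0.80), Pcsk1n (-0.11 ± 0.45) and Agrp (0.07 ± 0.37) the ZT14 difference did not pass (adjusted p = 0.305, 0.809, 0.92 and 0.934). The difference between the 2 times passed for no gene by limma (0 of 14931, lowest adjusted p = 0.637, with 698 genes at an unadjusted p under 0.05), for none by edgeR and for 13 by DESeq2, so that none of the genes above is shown by limma to respond differently at the 2 times.

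**Figure D5:**
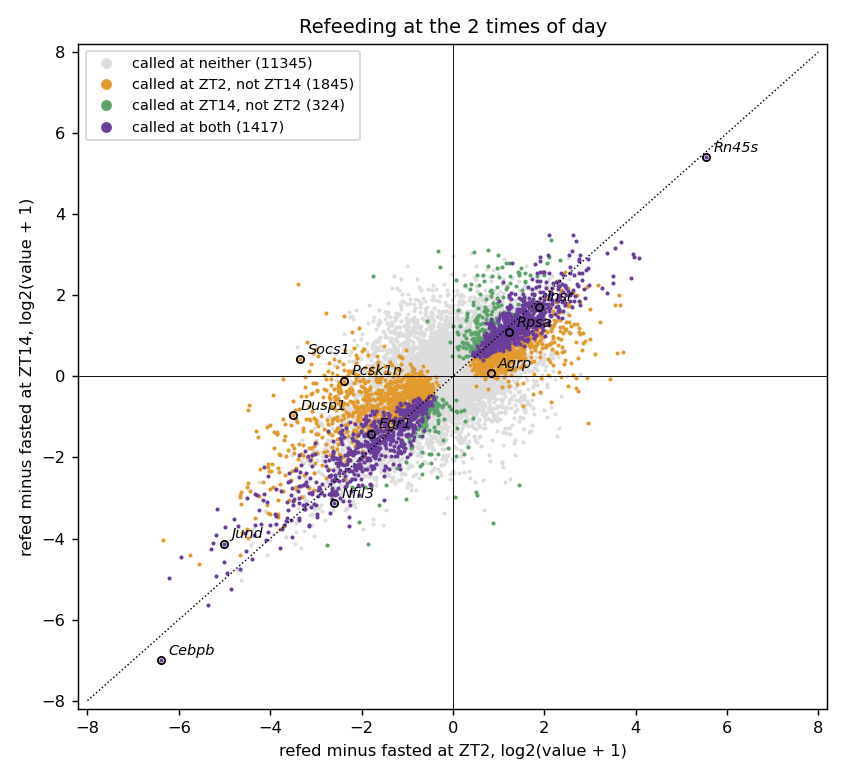
Refed minus fasted at ZT14 (vertical axis, 4 refed and 8 fasted libraries) against refed minus fasted at ZT2 (horizontal axis, 5 and 7 libraries), both on log2(value + 1), 1 point per gene, with a dotted line of equal differences. The 1417 genes called at both times (purple) lie along the line, Socs1, Pcsk1n and Agrp lie near 0 on the vertical axis, and 1845 genes were called at ZT2 but not at ZT14 and 324 the other way round.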

How the data were processed

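GFP-positive cells were sorted from slices of the arcuate nucleus, and cDNA (SMART-seq v4) and libraries (Nextera XT) were made from their RNA, per the labels' protocols. Reads were processed with STAR 2.5.1, featureCounts, DESeq and DESeq2 in R 3.5.1 on mm10, per the submitters' processing notes, which give no settings. The deposited signal of each of the 23337 genes in 80 libraries is, from its values, a read count divided by a size factor of its library. Whole reads were recovered in 79 libraries (the lowest share of values that came out whole, to within 0.1, was 99.99%), while ad libitum replicate 4 at ZT2 gave 18.03% and was left out of count tests.

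The filter kept the 14931 genes that reached 10 in 3 or more of the 33 NPY-GFP libraries. The main test was limma 3.58.1 with a mean-variance trend on log2(value + 1) over all 6 NPY-GFP groups, with Benjamini-Hochberg adjustment at 0.05. Alternatives were other pseudocounts, filters, scalings and fits, edgeR 4.0.16, DESeq2 1.42.0, each library left out, and 3 libraries left out together, the last chosen after seeing the data. The GC and length alternative removed a trend within each library over 14725 genes with GENCODE M21 features (20929 symbols matched directly, 1919 through an older symbol). Positions are from the same annotation on mm10, promoters from RefSeq (GRCm38.p6). On simulated counts limma called 35% of 100 genes changed 2-fold and 81% of 100 changed 4-fold, with 4 unchanged genes called. The counts were drawn independently for each gene, with no other difference between groups and no trend on GC content or length. The 4 calls therefore do not measure false calls in the real libraries.

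Members and gene lists were chosen with earlier results of these data known. The naming rule took the 15 largest non-overlapping changes in each direction among genes with a mean log2(value + 1) of at least 5, up to 6 called genes of each list, the largest changes shared with ZT14, the lowest p-values for the difference between the times and a fixed set such as Agrp, Npy, Insr, Lepr and Fos. It allowed 222 genes. The text names 104 of them, and Eef1a2 by its values alone, which the counts of named genes below leave out. Some of the others were dropped after their values were seen because their calls were unstable, and some are not reported here. Strand settings of the counting and the treatment of reads shared by gene copies are not given in the sources used here.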

Additional observations from a re-analysis of the deposited data

Results flagged for a closer look

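Within the groups of 5 refed and 7 fasted libraries 17 values of 208 gene and group combinations lay far from the rest of their group by Dixon's criterion on the log2(value + 1) scale, at a level where chance gives about 1 in 20.

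Of the refed libraries, replicate 4 was far from the others for 5 genes. It read 6.88 for Socs3 (others 53.8 to 104), 525 for Nr1d1 (112 to 144), 7064 for Srp72 (3616 to 4015), 1584 for Insig2 (2471 to 2894) and 0 for Hcn2 (7.01 to 13.8). Replicate 1 was the low one for Rictor (2019, others 2527 to 2623) and the high one for Csnk1e (562, others 250.5 to 316), Cnih2 (1354, others 152 to 206) and Slc1a3 (1.17, others 0). Replicate 3 was low for Rps18 (1989, others 2888 to 3159) and replicate 2 high for Bsn (433, others 272 to 292).

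Among the fasted libraries, replicate 6 was high for Pik3ip1 (932, others 233 to 418) and low for Cpt2 (377, others 597 to 829) and Acat1 (3361, others 4101 to 4725). Replicate 3 was low for Cish (35.9, others 196 to 432) and Ddx6 (45.9, others 182 to 403), and replicate 1 was high for Lamp1 (10458, others 6438 to 7633).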

How the results depend on the processing

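The count of 3262 genes called for refeeding at ZT2 ranged from 2557 (without refed replicate 4) to 3530.0 (without fasted replicate 4) when 1 library was left out, and was 2172 without the 3 libraries that stand apart. At ZT14 it was 1741, 3960.0 with library weights and between 1138 and 2447 with 1 library left out, the lowest without refed replicate 2 at ZT14. For the difference between the times, 0 by limma became 13 by DESeq2 and between 0 and 1 with 1 library left out. Against ad libitum cells 2648 genes became 1537 without the 3 libraries and between 1438 and 2833 with 1 left out, the lowest without refed replicate 4. Quantile normalisation called 1809 risen and 1449 fallen genes at ZT2 and DESeq2 called 1704 and 2052. The share that rose was then 55.5% and 45.4%, against 49.3%.

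Agrp was at -0.22 after quantile normalisation, which cannot measure a change of a gene at the top ranks. Vgf, at -0.04, turned to 0.027 with a replicate block, to 1.16 with the GC and length trend removed, and ranged from -0.28 (without refed replicate 1) to 0.20 (without fasted replicate 4) with 1 library left out. It was above 0 without fasted replicate 1 (0.11) and without refed replicate 3 (0.16) or 5 (0.17). The causes of these changes in Vgf were not tested. Of 188 called genes that the naming rule allowed, 109 kept their call in all 25 alternatives, 43 lost it with the GC and length trend removed (5 of them turned in sign), 46 without the 3 libraries and 30 without refed replicate 4. Because the genes named above leave out the least stable, their own record is better than this: 74 of 94 kept their call throughout. Counts for many lists moved by over 1.5 times in single alternatives, and not all of these values are printed. With only the compared groups in the fit, potassium channel genes gave 4 and 0 and ER to Golgi genes 8 and 1.

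Same-numbered refed and fasted libraries did not deviate together in every case (correlations 0.159, 0.0993, -0.115, 0.232 and 0.032). For refed replicates 1 and 4 the fasted library with the highest correlation was the same-numbered one. The labels do not say whether the numbers pair the libraries, and these correlations cannot settle it. With a replicate block 1625 genes rose and 1473 fell, 11 of the 188 genes lost their call, and 25 ribosomal protein genes rose.

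Depth ran from 8713599 to 20806446 reads in the 12 libraries, and limma called 35% of simulated 2-fold changes at ZT2.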
